A study of Mus musculus with 24 samples.

Results

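Glucocorticoids act in the mouse brain through the glucocorticoid receptor, a hormone-gated transcription factor encoded by Nr3c1. Its targets include genes that it switches on in many cell types. The set described here holds 9 such targets (Fkbp5, Sgk1, Sult1a1, Cdkn1a, Zbtb16, Tsc22d3, Plin4, Klf9 and Arrdc2) and the receptor gene Nr3c1, 10 genes of the 43430 in the count table. The genes were looked up by gene symbol. All 10 were found in the table and all 10 had enough counts to be tested, among 15300 genes tested in all.

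RNA was sequenced from whole cerebellum of mice about 7 weeks old, with 6 mice in each of 4 genotype groups (3 males and 3 females) and 1 library per mouse, 24 libraries in all. The groups were cKO+NDI1 (a brain conditional knockout that also carries NDI1), cKO (the knockout alone), NDI1 control (control mice that express NDI1) and Cre control (control mice named for Cre, with no further genotype given). The knockout is known from this line to impair mitochondrial complex I, the first enzyme of the respiratory chain, by deleting Ndufs4 under Nestin-Cre, which acts in neurons and glia. NDI1 is a yeast NADH dehydrogenase that oxidises NADH without pumping protons. The labels name neither the deleted gene, nor the strain, nor the time of day at dissection. The comparisons ask what the knockout changed in these genes and what differed when NDI1 was present.

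Glucocorticoid hormone is released from the adrenal cortex in a daily rhythm and in bursts under stress. Bound receptor leaves its chaperones, enters the nucleus and binds DNA as a dimer at palindromic elements. Among the targets, Fkbp5 encodes a co-chaperone that lowers the receptor's hormone affinity and so feeds back on it, Tsc22d3 encodes GILZ, an anti-inflammatory mediator, and Sgk1 encodes a kinase that regulates ion channels and transporters. Klf9 and Zbtb16 encode zinc finger transcription factors, and Cdkn1a encodes p21, an inhibitor of cyclin-dependent kinases that is also a classical target of p53. Sult1a1 encodes a phenol sulfotransferase, Plin4 a lipid droplet coat protein and Arrdc2 an arrestin-related adaptor.

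Library totals ranged from 7584374 to 19785264 counts, with medians of 15281035 in cKO+NDI1, 11547903 in cKO, 15254778 in the NDI1 control and 15874079 in the Cre control. All 24 libraries matched their labelled sex on Y-linked genes, and no pair of the 60 within groups was a copy of another. Ndufs4 averaged 101 ± 15.1 CPM in cKO+NDI1 and 144 ± 41.8 CPM in the NDI1 control, and 95.4 ± 21.5 CPM in cKO and 134 ± 23.6 CPM in the Cre control (CPM, counts scaled by TMM library size; SD, n = 6 per group here and below). A count over the whole gene does not check the deletion of a part of it. The cKO library F1, a female, stood apart in the glucocorticoid genes: it had the highest CPM of all 24 libraries in 7 of the 9 targets and was among the 6 highest in all 9. Values without it are given beside those it moved.

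Per kilobase of annotated exon, the levels of these genes in the Cre control spanned a wide range. Tsc22d3 at 39.3 ± 5.74 CPM per kilobase and Klf9 at 38.7 ± 5.67 CPM per kilobase were the most abundant and overlapped. Lower on average came Sgk1 at 20.8 ± 6.59 CPM per kilobase and Nr3c1 at 16.8 ± 1.35 CPM per kilobase, which also overlapped. The highest Cre control value of Sgk1, 32.53, lay above the lowest of Tsc22d3, 31.91, and below the lowest of Klf9, 32.73. Cdkn1a stood at 7.55 ± 1.04 CPM per kilobase and Sult1a1 at 4.31 ± 0.252 CPM per kilobase. The level of Arrdc2 was 3.08 ± 0.763 CPM per kilobase, and its range overlapped that of Sult1a1. Fkbp5 at 1.10 ± 0.187 CPM per kilobase and Zbtb16 at 0.953 ± 0.396 CPM per kilobase were low and overlapped, and Plin4 at 0.183 ± 0.120 CPM per kilobase was the lowest, with 6 to 69 counts per library. Plin4 therefore carries the largest counting error of the set.

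The promoters of these genes were read for the DNA element that the receptor is known to bind. RefSeq windows (GRCm38.p6) of 300 bases, 250 before and 50 after the start, were at hand for 8 of the 10 genes, 16 windows in all. They were searched on both strands for the palindromic element GNACANNNTGTNC and for the 6-base site TGTTCT, which can overlap the element. The element was in 156 of 32851 windows of all genes (0.475%) and the 6-base site in 6233 (19%). Of the 16 windows, 1 held the element, in Sgk1, and 5 held the 6-base site, in Sgk1, Sult1a1 and Tsc22d3. The windows shown are the one with the Sgk1 element and those with the sites of Sult1a1 and Tsc22d3, the members that carry any match, with matches on either strand in capitals. A match is a description of letters, and binding was not measured here.
Sgk1, chr10:21993640-21993939, plus strand: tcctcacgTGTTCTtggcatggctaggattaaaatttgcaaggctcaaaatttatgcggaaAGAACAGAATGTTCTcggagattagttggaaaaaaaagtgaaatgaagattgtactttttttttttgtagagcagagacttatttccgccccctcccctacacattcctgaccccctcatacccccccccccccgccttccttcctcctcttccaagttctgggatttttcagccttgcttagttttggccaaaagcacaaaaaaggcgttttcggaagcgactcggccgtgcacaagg
Sult1a1, chr7:126676369-126676668, minus strand: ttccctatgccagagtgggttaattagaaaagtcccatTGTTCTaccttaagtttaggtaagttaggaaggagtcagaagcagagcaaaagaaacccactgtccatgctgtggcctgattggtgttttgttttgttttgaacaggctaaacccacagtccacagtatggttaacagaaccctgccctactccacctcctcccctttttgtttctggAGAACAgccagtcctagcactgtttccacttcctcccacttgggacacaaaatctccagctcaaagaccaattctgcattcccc
Tsc22d3, chrX:140600473-140600772, minus strand: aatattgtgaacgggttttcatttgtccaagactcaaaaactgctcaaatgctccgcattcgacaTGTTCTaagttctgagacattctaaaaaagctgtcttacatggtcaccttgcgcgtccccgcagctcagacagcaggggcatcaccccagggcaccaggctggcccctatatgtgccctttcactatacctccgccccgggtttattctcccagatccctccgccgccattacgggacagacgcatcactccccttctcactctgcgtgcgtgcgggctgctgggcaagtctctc

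In Sgk1 the element starts at -188 from the start of transcription. The 6-base sites at -189 and -180 overlap it, and another stands at -242. Other Sgk1 windows held a 6-base site at -195 or at -13. Sult1a1 has its 6-base sites at -212 and -34, and Tsc22d3 has its site at -185. Cdkn1a and Fkbp5 had neither in their windows, which says only that these letters are not there.

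**Figure D1:**
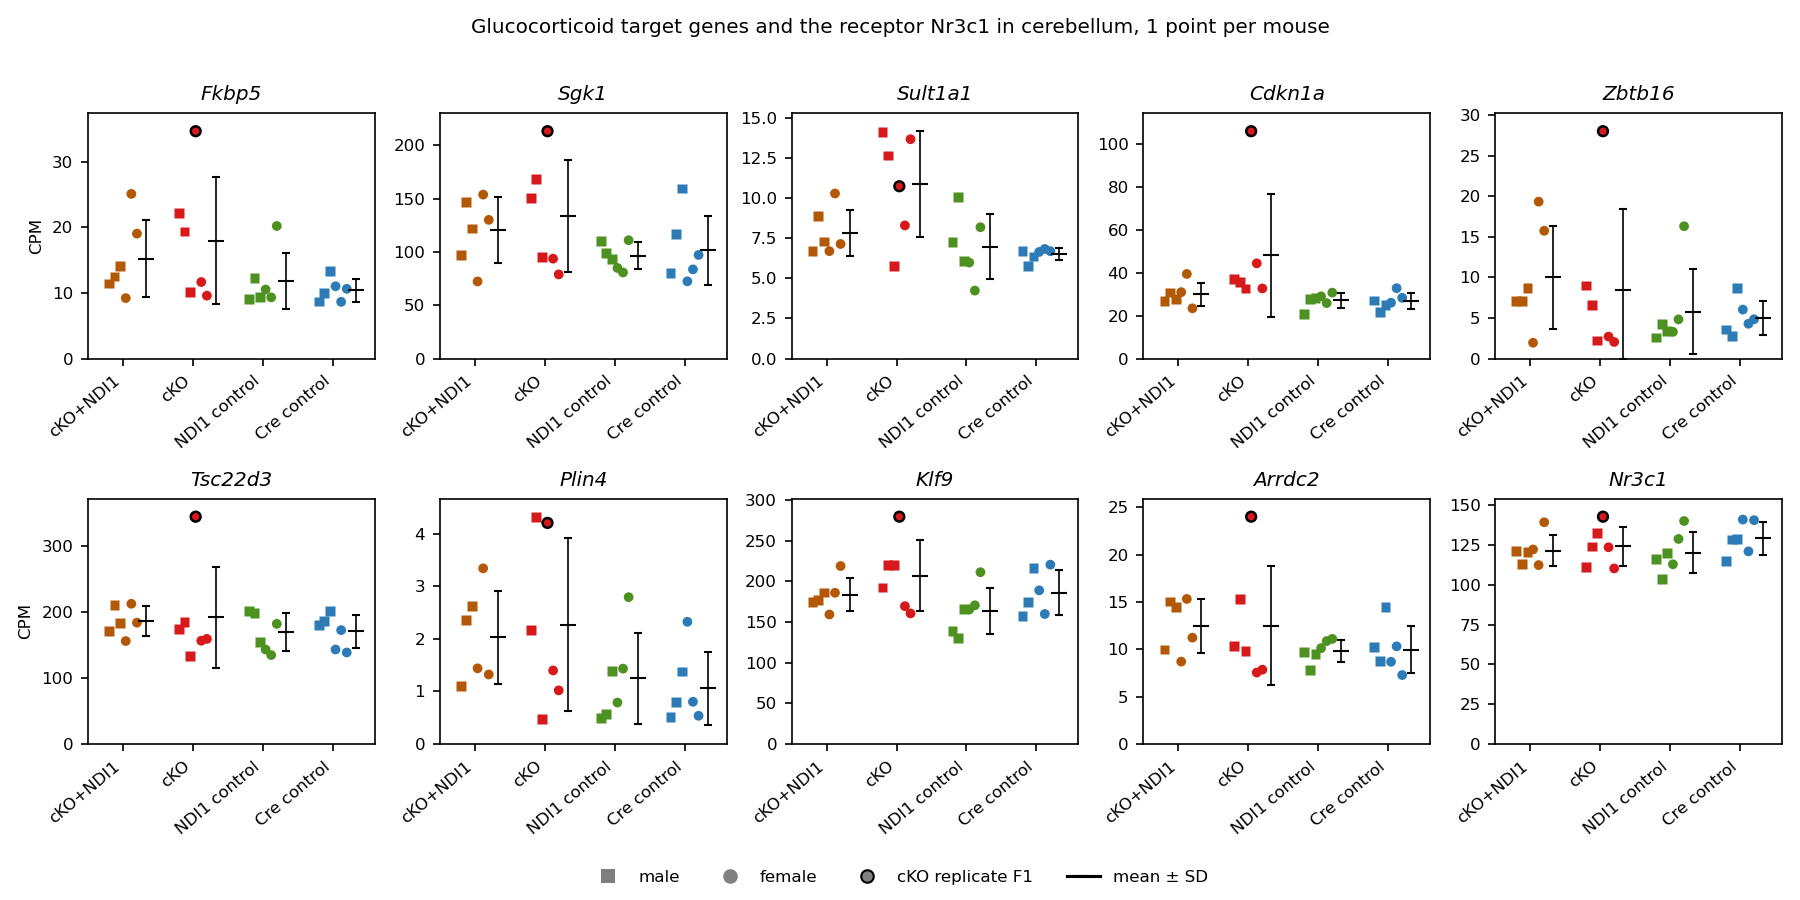
CPM of each gene in each mouse by genotype group (vertical axes start at 0), with squares for males, circles for females and bars for mean ± SD of 6 mice, the lower bar ending at 0 where the SD exceeds the mean. The outlined cKO replicate F1 is the highest of 24 points in 7 of the 9 target genes, while Sult1a1 is above every Cre control mouse in 5 of 6 cKO mice.

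Compared with the Cre control, cKO cerebellum had higher RNA of Cdkn1a and Sult1a1, by 1.75-fold and 1.67-fold, and these were the members that passed the test. Fkbp5 and Plin4 had positive fold changes of similar or larger size that did not pass, and the receptor Nr3c1 had a log2 fold change of -0.06. In all, 2 of 10 members were called, both higher, while 4.87% of all genes tested were called in this comparison (3.06% were called higher). The members' median log2 fold change was 0.52, with 9 of 10 positive, beside a median of -0.01 over all genes. At an unadjusted p under 0.05 stood 4 members, against 18.5% of all genes. No member had cKO and Cre control groups that did not overlap, whereas 2.69% of all genes did.

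Cdkn1a (chromosome 17, 29090979 to 29100722, plus strand, mm10) had CPM of 37.1, 35.7 and 32.7 in cKO males and 106, 44.4 and 32.7 in cKO females, against 27.1, 21.8 and 24.8 in Cre control males and 26.0, 32.8 and 28.3 in Cre control females. The groups overlapped only between the lowest cKO mice and Cre control F2, the highest control. The log2 fold change was 0.81 ± 0.20 (SE for log2 values here and below; edgeR quasi-likelihood test, Benjamini-Hochberg adjusted p = 0.0178). Without cKO F1 it was 0.46 ± 0.11 and remained called (edgeR, adjusted p = 0.0253). The call held in all 24 fits that left out 1 library, with edgeR adjusted p between 0.00847 and 0.0481. Of 3553 annotated exonic bases of Cdkn1a, 273 are shared with a gene on the opposite strand, and the counting's strand setting was not given in the sources used here.

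Sult1a1 (chromosome 7, 126672865 to 126676432, minus strand) had CPM of 14.1, 12.7 and 5.76 in cKO males and 10.7, 8.30 and 13.7 in cKO females, against 6.69, 5.79 and 6.37 in Cre control males and 6.64, 6.83 and 6.69 in Cre control females. In 5 of 6 cKO mice it lay above every Cre control mouse, and cKO M3 lay below all of them. The Cre control spread was narrow, with an SD of 0.379 CPM against 3.30 CPM in cKO. The log2 fold change was 0.74 ± 0.19 (edgeR, adjusted p = 0.0255) and was also 0.74 without cKO F1 (edgeR, adjusted p = 0.0481). With 1 library left out at a time, the call held in 19 of 24 fits and was lost without cKO M1, M2 or F3 or Cre control M2 or M3, with edgeR adjusted p of at most 0.0672. In males alone the log2 fold change was 0.77 ± 0.27 and in females alone 0.69 ± 0.24 (edgeR, adjusted p = 0.161 and 0.145).

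Fkbp5 (chromosome 17, 28399095 to 28517524, minus strand) ran from 9.59 to 34.7 CPM in cKO, with a median of 15.5, and from 8.64 to 13.4 CPM in the Cre control, with a median of 10.3. The mice cKO M1, M2 and F1 lay above every Cre control mouse, at 22.2, 19.4 and 34.7 CPM, and cKO M3, F2 and F3 lay within the control range. The log2 fold change was 0.77 ± 0.28 (edgeR, adjusted p = 0.12) and 0.50 ± 0.27 without cKO F1 (edgeR, adjusted p = 0.387). Plin4 (chromosome 17, 56100591 to 56109803, minus strand) ran from 0.473 to 4.32 CPM in cKO and from 0.520 to 2.33 CPM in the Cre control. Its log2 fold change of 1.09 ± 0.48 did not pass (edgeR, adjusted p = 0.22). It was 0.87 ± 0.51 without cKO F1 (edgeR, adjusted p = 0.445) and ranged from 0.64 to 1.47 as single libraries were left out, lowest without cKO M2.

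The remaining targets did not pass the test. Zbtb16 (chromosome 9, 48654311 to 48835945, minus strand) spanned 2.04 to 28.01 CPM in cKO, a 13.7-fold range, against 2.81 to 8.66 CPM in the Cre control, a 3.09-fold range. Its log2 fold change was 0.63 ± 0.56, and -0.11 ± 0.55 without cKO F1 (edgeR, adjusted p = 0.618 and 0.967). Sgk1 (chromosome 10, 21882184 to 21999903, plus strand) spanned 79.0 to 213 CPM in cKO and 72.5 to 160 CPM in the Cre control, with a log2 fold change of 0.40 ± 0.22, and 0.17 ± 0.20 without cKO F1 (edgeR, adjusted p = 0.341 and 0.784). Tsc22d3 (chromosome X, 140539528 to 140600659, minus strand) reached 344 CPM in cKO F1, while the other cKO mice lay between 133 and 185 CPM and the Cre control between 139 and 202 CPM. With cKO F1 its log2 fold change was 0.18 ± 0.17 and without it -0.09 ± 0.11 (edgeR, adjusted p = 0.658 and 0.804). Arrdc2 (chromosome 8, 70835155 to 70839720, minus strand) had a log2 fold change of 0.32 ± 0.23, and 0.02 ± 0.18 without cKO F1. Klf9 (chromosome 19, 23141226 to 23166911, plus strand) had one of 0.15 ± 0.12, and 0.06 ± 0.12 without cKO F1.

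Nr3c1, the receptor (chromosome 18, 39410545 to 39491301, minus strand), had the smallest spread relative to its mean of the 10 genes in each group except the Cre control, where that of Sult1a1 was smaller. It averaged 122 ± 9.66 CPM in cKO+NDI1, 124 ± 12.5 CPM in cKO, 120.3 ± 12.7 CPM in the NDI1 control and 129 ± 10.4 CPM in the Cre control, with all 4 ranges overlapping. Its log2 fold change in cKO against the Cre control was -0.06, with an interval of -0.21 to 0.10 (95% from the edgeR fit). The interval in cKO+NDI1 against cKO was -0.18 to 0.12. Without cKO F1 these intervals were -0.25 to 0.06 and -0.15 to 0.16.

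Leaving out cKO F1 moved the set as a whole. Without it, 2 of 10 members were still called in cKO against the Cre control, Sult1a1 and Cdkn1a, with 2.21% of all genes called higher. The median log2 fold change of the 10 fell to 0.11, against 0.52 with all libraries, and 7 rather than 9 were positive. The library F1 also had the highest summed immediate early genes in its group (1350 CPM, against 463 to 706 CPM in the other cKO mice) and the highest summed level of a list of 26 other glucocorticoid targets (3780 CPM, against 2245 to 2903 CPM). What set this mouse apart was not tested.

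**Figure D2:**
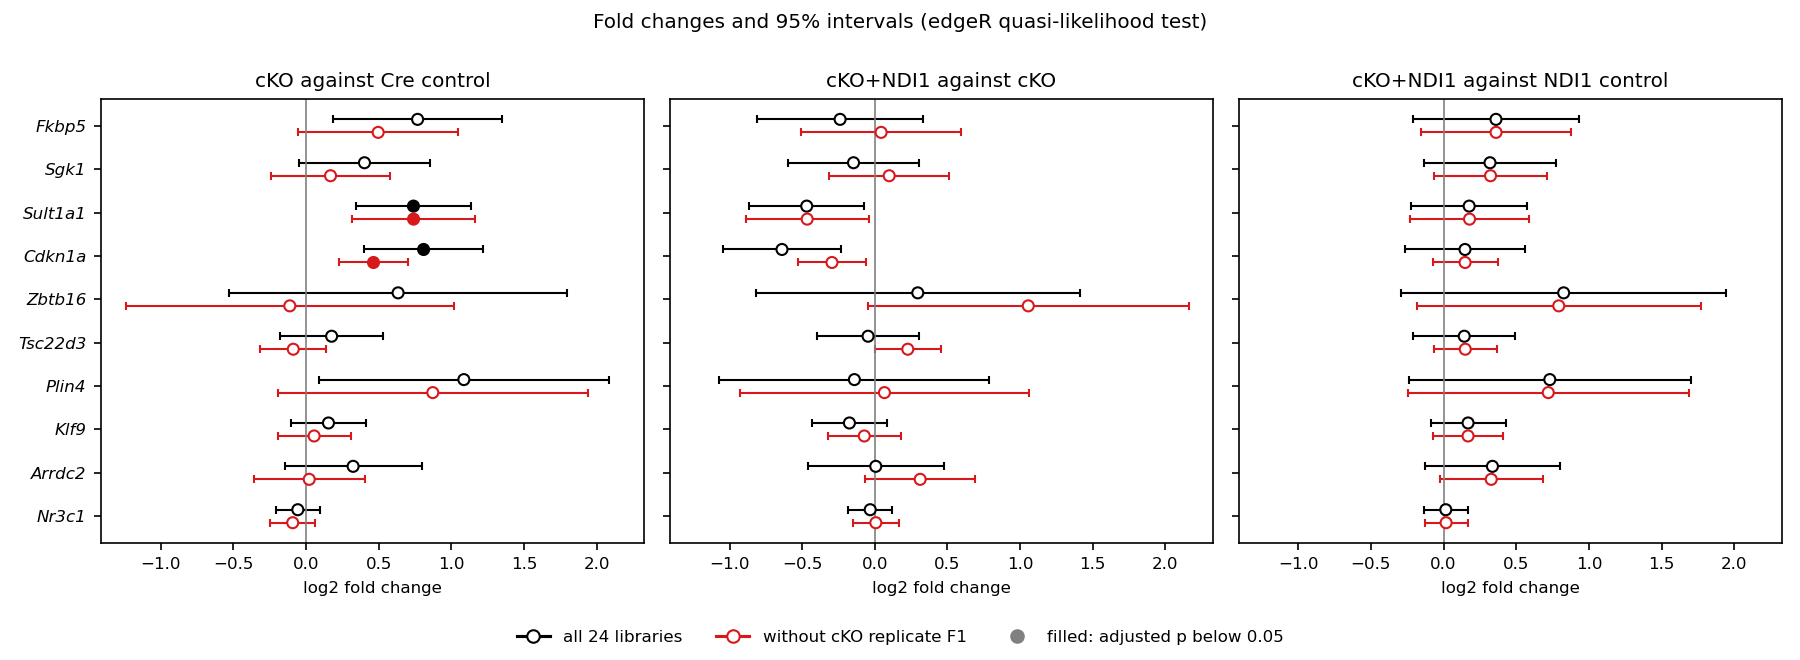
Log2 fold change of each gene (horizontal axis) with its 95% interval in 3 comparisons, fitted to all 24 libraries (black) and without cKO replicate F1 (red), filled where the adjusted p is below 0.05. Sult1a1 and Cdkn1a in cKO against the Cre control are the filled points, and the log2 fold change of Zbtb16 is 0.63 with cKO F1 and -0.11 without it.

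When the knockout carried NDI1, the levels of Cdkn1a and Sult1a1 were nearer the controls, but neither difference from cKO passed the test. Both genes were singled out because they were called higher in the same cKO mice. Their direction in this comparison is therefore not independent of that call. Cdkn1a ran from 23.4 to 39.4 CPM in cKO+NDI1, with a median of 29.3, against 32.7 to 106 CPM in cKO, with a median of 36.4. The log2 fold change was -0.64 ± 0.20 (edgeR, adjusted p = 0.234), and -0.29 ± 0.11 without cKO F1 (edgeR, adjusted p = 0.458). Sult1a1 ran from 6.69 to 10.3 CPM in cKO+NDI1, with a median of 7.22, against 5.76 to 14.1 CPM in cKO, with a median of 11.7. Its log2 fold change was -0.47 ± 0.19, and -0.47 ± 0.20 without cKO F1 (edgeR, adjusted p = 0.458 and 0.571). In this comparison 0 of 10 members were called by edgeR, DESeq2 or limma-voom, 2 had an unadjusted p under 0.05 by edgeR, and 0.209% of all genes were called. The members' median log2 fold change was -0.14 with 8 negative, and 0.05 with 3 negative without cKO F1.

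Without cKO F1, 6 of the other 7 targets had positive log2 fold changes in cKO+NDI1 against cKO, none of them called, and Klf9 had one of -0.07. Fkbp5 stood at 9.21 to 25.1 CPM in cKO+NDI1, with a median of 13.3, against a median of 15.5 in cKO. Its log2 fold change was -0.24 ± 0.28, and 0.04 ± 0.27 without cKO F1 (edgeR, adjusted p = 0.875 and 0.992). Zbtb16 had a median of 7.91 CPM in cKO+NDI1, with F2 and F3 at 19.3 and 15.7 CPM, against a median of 4.67 CPM in cKO. The log2 fold change of Zbtb16 was 0.30 ± 0.54, and 1.06 ± 0.53 without cKO F1 (edgeR, adjusted p = 0.925 and 0.661).

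Against its own control, cKO+NDI1 had positive log2 fold changes in all 10 genes, and none passed. The log2 fold change was 0.83 ± 0.54 for Zbtb16, 0.73 ± 0.47 for Plin4, 0.36 ± 0.28 for Fkbp5, 0.34 ± 0.23 for Arrdc2 and 0.32 ± 0.22 for Sgk1, and the other 5 lay between 0.02 and 0.18. The median of the 10 was 0.25, beside -0.01 over all genes. By edgeR 0 of 10 members were called and 0 had an unadjusted p under 0.05, DESeq2 and limma-voom called 0 members, and 0% of all genes were called (686 at an unadjusted p under 0.05, and 25 by DESeq2). Against the Cre control, cKO+NDI1 had 8 positive log2 fold changes with a median of 0.26, led by Plin4 at 0.95 ± 0.48 and Zbtb16 at 0.93 ± 0.55 (edgeR, adjusted p = 0.399 and 0.496). There too 0 members were called by edgeR, DESeq2 or limma-voom and 0 had an unadjusted p under 0.05, with 1.25% of all genes called, 129 higher and 62 lower (194 and 31 when scaled by library size alone). These comparisons share the cKO+NDI1 mice, and cKO against the Cre control shares the Cre control mice with the last.

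NDI1 by itself moved no member past the test. In the NDI1 control against the Cre control, 5 log2 fold changes were positive and 5 negative, from -0.19 for Klf9 to 0.21 for Plin4, with a median of 0.01. By edgeR, DESeq2 and limma-voom 0 members were called, 0 had an unadjusted p under 0.05 by edgeR, and 0.00654% of all genes were called. The interaction term, the knockout's effect with NDI1 minus that without it, was -0.66 ± 0.28 for Cdkn1a and -0.56 ± 0.27 for Sult1a1 on the log2 scale. Those were the members with an unadjusted p under 0.05, and both missed the adjusted threshold (edgeR, adjusted p = 0.915 and 0.96). The interaction reuses the cKO and Cre control mice in which these genes were called, so its sign is not independent of that call. Without cKO F1 the interaction was -0.32 ± 0.16 for Cdkn1a and -0.56 ± 0.29 for Sult1a1, and 0 members had an unadjusted p under 0.05 (edgeR, unadjusted p = 0.0553 and 0.0622). The interaction called 0 members by any of the 3 tools and 0% of all genes by edgeR, which left 792 genes at an unadjusted p under 0.05 (DESeq2 called 13).

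Sex moved no member past the test. In males against females, over all genotypes, Cdkn1a had a log2 fold change of -0.33 ± 0.14 (edgeR, adjusted p = 0.291) and Zbtb16 of -0.70 ± 0.39 (edgeR, adjusted p = 0.309). By edgeR, DESeq2 and limma-voom 0 members were called, 1 had an unadjusted p under 0.05 by edgeR, and 0.085% of all genes were called. Without cKO F1 the log2 fold change was -0.17 ± 0.08 for Cdkn1a and -0.35 ± 0.36 for Zbtb16 (edgeR, adjusted p = 0.348 and 0.563), and Sgk1, Cdkn1a and Tsc22d3 had an unadjusted p under 0.05, none of them called. In cKO against the Cre control, the log2 fold change of Cdkn1a was 0.51 ± 0.13 in males alone and 1.05 ± 0.34 in females alone, where cKO F1 is 1 of 3 mice (edgeR, adjusted p = 0.0857 and 0.114). Tsc22d3 was -0.22 ± 0.13 in males alone and 0.53 ± 0.26 in females alone (edgeR, adjusted p = 0.372 and 0.276). Whether the knockout's effect differed between the sexes was not tested.

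Apart from genotype and sex, most of these genes varied with Fkbp5 from mouse to mouse. Whether genes outside the set did so to a like degree was not tested. Each gene's log2 CPM was expressed as its deviation from the mean of its genotype and sex, and each of the other 9 genes was correlated with Fkbp5 over the 24 mice (permutation within genotype and sex, Benjamini-Hochberg over the 9 relations). Zbtb16 followed Fkbp5 most closely, with Pearson r = 0.966 and Spearman rho = 0.958 (permutation, adjusted p = 0.00054 and 0.00072). Sgk1 had r = 0.887 and rho = 0.838 (permutation, adjusted p = 0.00283 and 0.00513), and Tsc22d3 had r = 0.84 and rho = 0.759 (permutation, adjusted p = 0.00688 and 0.0111). Plin4 had r = 0.704 and rho = 0.689 (permutation, adjusted p = 0.00688 and 0.0103). Arrdc2 had r = 0.718 and rho = 0.582 (permutation, adjusted p = 0.0252 and 0.0336), and Klf9 had r = 0.683 and rho = 0.627 (permutation, adjusted p = 0.026 and 0.0275).

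For the genes called in cKO, the relation with Fkbp5 did not pass by Pearson r. Sult1a1 had r = 0.546 and rho = 0.559 (permutation, adjusted p = 0.0647 and 0.0471), and Cdkn1a had r = 0.645 and rho = 0.436 (permutation, adjusted p = 0.0888 and 0.12). Between Sult1a1 and Cdkn1a themselves r was 0.178, given as a description. The receptor Nr3c1 had r = 0.306 and rho = 0.31 with Fkbp5 (permutation, adjusted p = 0.348 and 0.282).

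Leaving out the mice farthest from the median of Fkbp5, cKO F1 (deviation 1.13) and cKO+NDI1 F1 (deviation -0.83), changed some relations more than others. Over the remaining 22 mice r was 0.921 for Zbtb16, 0.728 for Sgk1, 0.726 for Sult1a1 and 0.697 for Plin4 (permutation, adjusted p = 0.00675, 0.021, 0.0401 and 0.0394). For Tsc22d3 it was 0.665 (permutation, adjusted p = 0.0541). For Klf9 and Arrdc2 it was 0.304 and 0.30 (permutation, adjusted p = 0.322 for each), against 0.683 and 0.718 over all 24 mice. Spearman rho over all 24 mice had passed for both genes. The size of their r therefore depended on the mice left out. Cdkn1a then had r = 0.374 and Nr3c1 r = -0.00065 (permutation, adjusted p = 0.102 and 0.998). Without cKO F1 alone r was 0.459 for Klf9, 0.474 for Arrdc2 and 0.693 for Sult1a1 (permutation, adjusted p = 0.128, 0.128 and 0.02). The points share their libraries and so their depth and scaling.

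**Figure D3:**
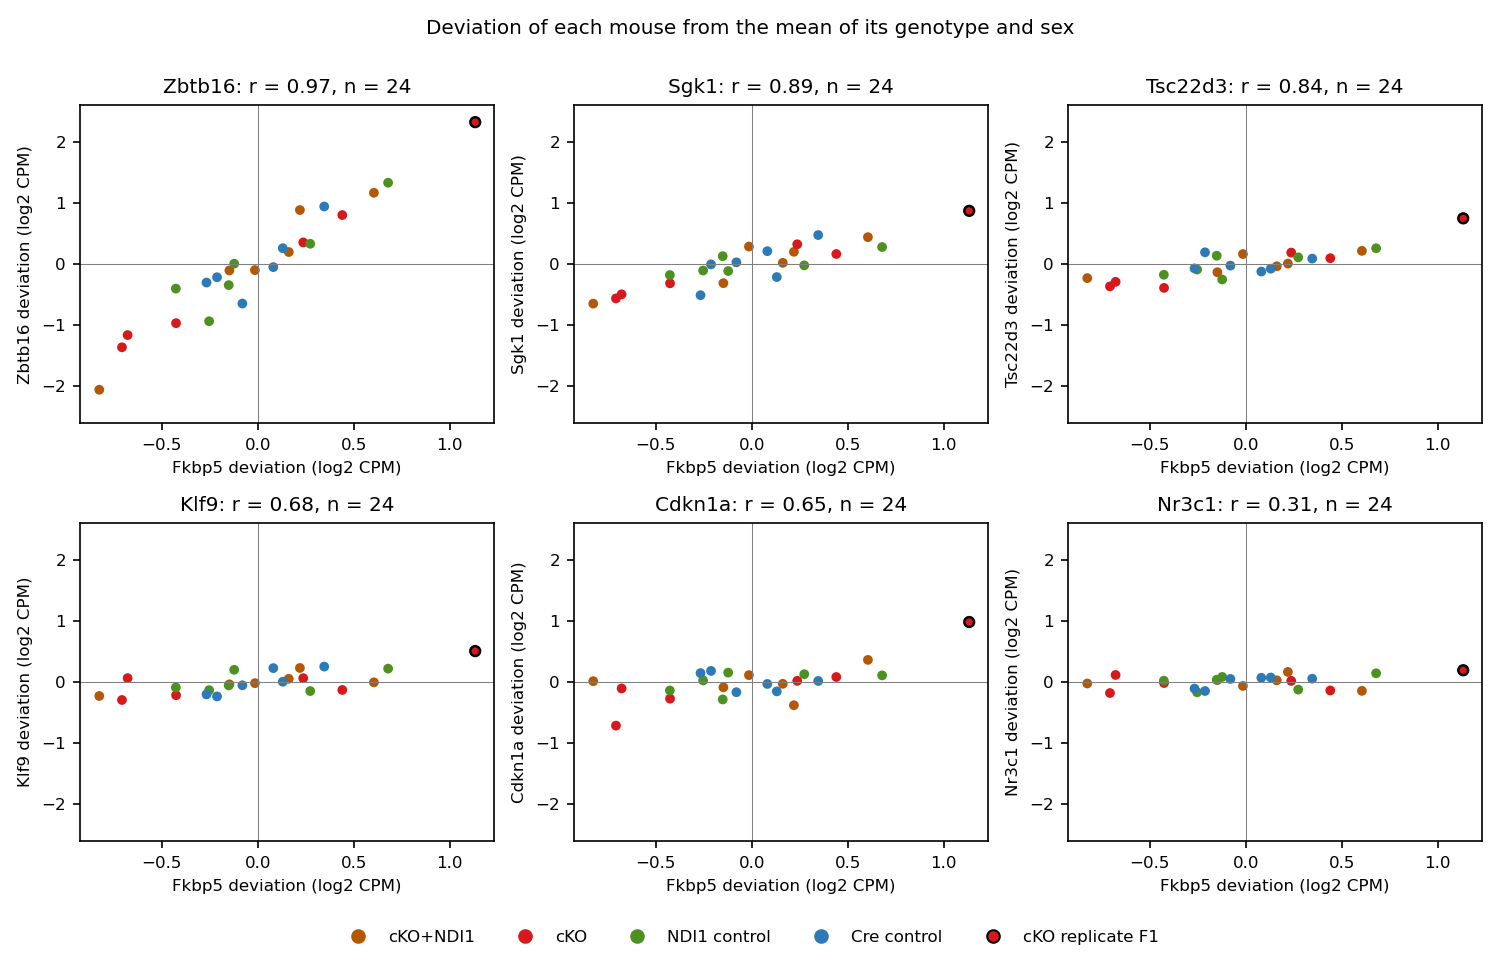
Deviation of each gene (vertical axis, log2 CPM) against that of Fkbp5 (horizontal axis, log2 CPM) from the mean of the same genotype and sex, 1 point per mouse coloured by genotype, n = 24. Zbtb16 falls along a line (r = 0.966), the Klf9 relation leans on the outlined cKO F1, and Nr3c1 stays close to 0 throughout.

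High and low mice occurred in every genotype, but not evenly. The mouse cKO+NDI1 F2 was among the 6 highest of 24 in 8 of 9 targets, cKO M2 in 7, cKO M1 in 5, and cKO+NDI1 M2 and Cre control M3 in 4 each. No other Cre control mouse was among the 6 highest in more than 1 target. In the NDI1 control, F3 was there in 3, M2 in 2 and M1 in 1. In the NDI1 control, F3 had 20.2 CPM of Fkbp5 and 16.3 CPM of Zbtb16, against at most 12.3 and 4.82 CPM in the other 5 mice of that group. At the low end, cKO+NDI1 F1 had 1.94 CPM of Zbtb16, the lowest of all 24, and 9.21 CPM of Fkbp5. Among the 6 lowest, NDI1 control M1 and F2 and cKO+NDI1 F1 stood in 5 of 9 targets each. Cre control M1 and F1 and cKO M3 and F3 stood there in 4 each. The other control mice stood there in 3 each, except Cre control M3 in 2 and NDI1 control F3 in 0. The mice cKO M1, M2 and F1 and cKO+NDI1 M1, M2, M3 and F2 stood there in 0. The widest spread within the Cre control was that of Plin4, 4.47-fold between the lowest and the highest mouse, and the narrowest that of Sult1a1, 1.18-fold.

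**Figure D4:**
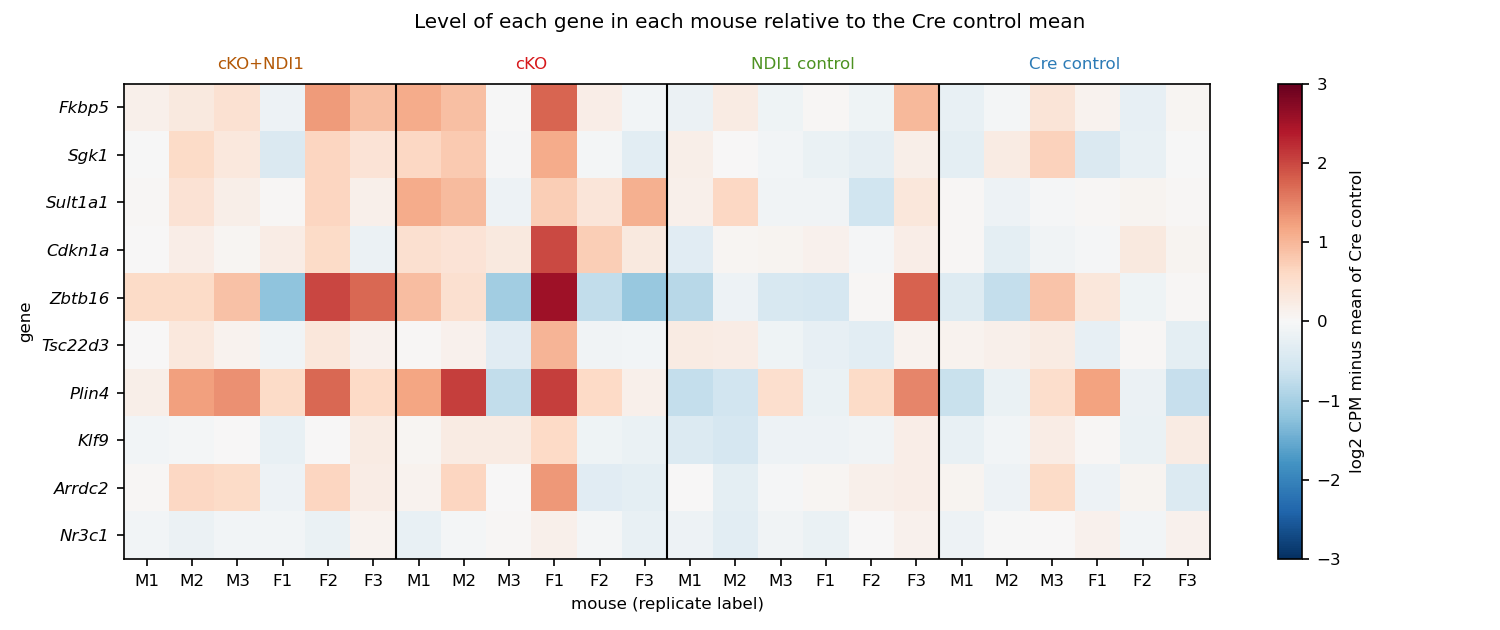
Log2 CPM of each gene (rows) in each of 24 mice (columns, by group and replicate label) minus the Cre control mean, red higher and blue lower. Most target genes are red in cKO F1 and cKO+NDI1 F2, Fkbp5 and Zbtb16 share the colour of NDI1 control F3, and the Nr3c1 row is pale throughout.

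Among 13850 named genes, the 5 with the highest Pearson r of log2 CPM with Fkbp5 over 24 libraries were Zbtb16 at 0.877, Vipr2, a receptor for the neuropeptides VIP and PACAP, at 0.874, Usp53 at 0.831, Kcna5, a voltage-gated potassium channel, at 0.830, and Sgk1 at 0.821. Without cKO F1 these r were 0.838, 0.819, 0.778, 0.806 and 0.757, at ranks 3, 4, 6, 5 and 11. In likeness to Fkbp5, Plin4 ranked 34, Arrdc2 65, Klf9 117, Tsc22d3 128, Cdkn1a 199, Sult1a1 339 and Nr3c1 4316 among the 13850 genes. Without cKO F1 their ranks were 29, 240, 332, 762, 1599, 197 and 6488. Many genes outside the set therefore stood above these members. Cdkn1a, the member with the smallest p in cKO, was most like Socs3, a feedback inhibitor of cytokine signalling, at 0.870, Ucp2, an uncoupling protein of the mitochondrial inner membrane, at 0.869, Fbxo31 at 0.866, Relb, an NF-kappa-B subunit, at 0.843, and Zbtb7b at 0.819. Without cKO F1 these fell to 0.697, 0.725, 0.740, 0.591 and 0.736, at ranks 8, 5, 2, 94 and 3. These values are a description, without a test, and include differences between genotypes.

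The rest of the pathway was described by lists taken from general knowledge, with earlier results of these data known. Of 26 other glucocorticoid targets, all tested, 0 were called by edgeR in cKO against the Cre control, with a median of 0.17 and 20 above 0. The smallest p was that of Cebpb, a transcription factor induced by hormones and cytokines, with 8.57 ± 4.17 CPM in cKO and 5.41 ± 0.995 CPM in the Cre control (log2 0.63 ± 0.23; edgeR, adjusted p = 0.109). Per1, a clock gene that the receptor also drives, averaged 92.9 ± 35.1 CPM in cKO and 63.9 ± 22.1 CPM in the Cre control (log2 0.55 ± 0.24; edgeR, adjusted p = 0.219). Without cKO F1 the list's median was 0.05, with 16 positive. In cKO+NDI1 against cKO its median was -0.08 with 10 positive, and 0.13 with 18 positive without cKO F1, so the sign of this list's median turned on that mouse.

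Among the receptor's partners, the calls in cKO were both lower. Of 26 genes for chaperones, coregulators and hormone metabolism, 24 were tested and 2 were lower in cKO, both HSP90, the chaperone that holds the receptor ready to bind hormone and serves many other clients. Hsp90aa1 stood at 409 ± 36.8 CPM in cKO and 539 ± 62.5 CPM in the Cre control (log2 -0.39 ± 0.08; edgeR, adjusted p = 0.00699). Hsp90ab1 ran from 1221 to 1371 CPM in cKO and from 1384 to 1620 CPM in the Cre control, without overlap (log2 -0.20 ± 0.05; edgeR, adjusted p = 0.0286). Both calls held without cKO F1. Over all genes, 277 of 15300 were called lower in cKO (181 of 15399 without cKO F1), and 2.69% had groups that did not overlap. The median of the 24 was -0.03, beside -0.01 over all genes, and 0 of them were called in cKO+NDI1 against cKO by edgeR.

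Since Cdkn1a also responds to p53, 20 other p53 targets were read beside it. By edgeR 0 of 20 were called in cKO against the Cre control, 9 were positive and the median was -0.01, the same as over all genes to 2 decimals. Whether p53 had a part in the Cdkn1a difference was not tested. Of 22 immediate early genes, the rapid transcripts of neuronal activity and stress, 20 were tested. In cKO 3 were higher (Maff, Egr4 and Fosb) and Arc was lower, beside 4.87% of all genes called. The median of the 20 was 0.61. Maff, a small Maf transcription factor, ran from 2.44 to 24.4 CPM in cKO and from 1.16 to 2.27 CPM in the Cre control, without overlap (log2 2.03 ± 0.48; edgeR, adjusted p = 0.0153). Without cKO F1 the calls were Maff and Arc, and the median was 0.18. Among the clock genes, Cry1, a repressor of the clock's feedback loop, was higher (log2 0.37 ± 0.11; edgeR, adjusted p = 0.047), and it was not called without cKO F1. In cKO+NDI1 against cKO, 0 genes of these 3 lists were called by edgeR. Per1 is on both the list of other targets and that of clock genes, and Btg2 on those of p53 targets and immediate early genes.

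In whole tissue, fewer cells of a type and less RNA per cell cannot be told apart, and markers of several cell types were among the 4.87% of genes called in cKO against the Cre control. The summed level of 12 endothelial markers was 579 to 638 CPM in cKO+NDI1 and 592 to 683 CPM in cKO, against 565 to 592 CPM in the NDI1 control and 500.2 to 568 CPM in the Cre control. In cKO, 2 of the 12 were higher than in the Cre control, Pecam1 and Ctla2a, with a median log2 fold change of 0.24, and none of the 12 was at 0 in any library. The mouse cKO F1 had the highest endothelial sum of its group, 683 CPM, against 592 to 644 CPM in the other cKO mice. Of 10 markers of pericytes and smooth muscle 4 were higher in cKO, with a median log2 fold change of 0.21, and their sum was 430 to 478 CPM in cKO and 343 to 431 CPM in the Cre control. Without cKO F1, 2 of these 10 were called, Acta2 and Rgs5. Of 10 astrocyte and Bergmann glia markers 2 were lower, and their sum was 4541 to 5160 CPM in cKO and 5223 to 5447 CPM in the Cre control. Of 10 oligodendrocyte markers 1 was higher in cKO against the Cre control. Their sums overlapped, at 11900 to 18690 CPM in cKO and 12550 to 14640 CPM in the Cre control. In cKO+NDI1 against cKO, where 0.209% of all genes were called, 4 of the 10 were lower. The sums of the 10 were 9468 to 11450 CPM in cKO+NDI1 and 11900 to 18690 CPM in cKO. The sum in the NDI1 control, 10050 to 12510 CPM, lay below that of every Cre control mouse. Of 7 Purkinje cell markers 1 was lower in cKO, with sums of 9303 to 10020 CPM in cKO and 10490 to 10980 CPM in the Cre control, and of the 8 markers each of granule neurons, microglia, choroid plexus and meningeal fibroblasts 0 were called by edgeR in either comparison. Without cKO F1 the number of markers called in the other cell type lists was the same in both comparisons. The part of these differences in the results for Sult1a1, Cdkn1a and the other members was not tested.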

How the data were processed

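The authors deposited raw read counts per gene for 24 libraries, whole numbers with no normalization. Per the labels' protocols, RNA came from flash-frozen whole cerebellum and mRNA was selected by polyA. Tools named in the submitters' processing notes are bcl2fastq, Trimmomatic, STAR and HTSeq, beside the build mm10, without versions. Of the table's 43430 genes, 42462 had a symbol, and 0 library columns were left unused.

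Groups and sexes come from the labels. Counts were scaled by TMM, low genes were removed with filterByExpr, and 15300 genes were tested with edgeR 4.0.16 (quasi-likelihood, robust, genotype group and sex as terms, R 4.3.3). Benjamini-Hochberg adjustment covered every gene tested, at a threshold of 0.05. Standard errors are the log2 fold change over the root of F, and log2 CPM used a prior count of 2. DESeq2 1.42.0 and limma-voom 3.58.1 were alternatives, with other scalings, no filter, thinned counts, single sexes, single groups, a replicate block and each library left out. Correlations used 100000 permutations within genotype and sex. The pipeline was tested on simulated counts.

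Levels per kilobase used the union of GENCODE vM21 exons, because the deposited gene length exceeds the gene's span for Sult1a1 and Plin4. Exons of another gene on the opposite strand share 61 bases with Sult1a1, 273 with Cdkn1a and 17 with Plin4. The members and lists were chosen with earlier results of these data known. Named genes are all members, up to 4 called genes per list with the smallest p or else the smallest p alone, and the 5 genes most like Fkbp5 and Cdkn1a. Per1 was named after its values were seen. Each library is 1 mouse, and the labels give no batch. A gene of the clock list is not reported here.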

Additional observations from a re-analysis of the deposited data

Results flagged for a closer look

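In groups of 6 mice, the gap between an extreme mouse and its nearest neighbour was compared with the group's range by Dixon's test at 95%, over 56 groups of values, 40 of them for single genes of the set. For independent, normally distributed values, chance alone would mark about 1 in 20 groups. Here 9 were marked, 6 of them for members. The groups reuse the same 24 mice over genes that vary together, so the marks are not independent and their number cannot be set against that rate. The mouse cKO F1 was marked for Cdkn1a at 106 CPM (nearest other cKO mouse 44.4), Zbtb16 at 28.01 CPM (nearest 8.998) and Tsc22d3 at 344 CPM (nearest 185). In the NDI1 control, F3 was marked for Fkbp5 at 20.2 CPM (nearest 12.3) and for Zbtb16 at 16.3 CPM (nearest 4.82). In cKO+NDI1, F3 was marked for Nr3c1 at 139 CPM (nearest 122). Among list sums, the immediate early genes were marked high in cKO F1 at 1350 CPM and in Cre control F3 at 693 CPM, and the clock genes low in cKO+NDI1 F1 at 1442 CPM (nearest 1736).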

How the results depend on the processing

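The calls of Sult1a1 and Cdkn1a in cKO against the Cre control held with RLE size factors, library size alone, DESeq2, limma-voom and a replicate block (2 members each). Without a filter 1 member was called (Sult1a1), with thinned counts 1 (Cdkn1a), and in males alone, in females alone and with the compared groups alone 0, with log2 fold changes of 0.67 to 0.78 for Sult1a1 and 0.51 to 1.05 for Cdkn1a over these settings. As each library was left out, 1 to 2 members were called. In the other comparisons 0 members were called under every setting run. The replicate numbers have no stated meaning, and the mice were not treated as pairs in the main fit. Over 36 pairs the correlation of same-numbered libraries' deviations ran from -0.41 to 0.503, with a median of 0.111 and 19 above 0.1. Libraries of unlike number were not compared, so these values do not decide whether the numbers mark pairs or batches. The replicate block changed no member's call. Depth limits Plin4 most, at 6 to 69 counts per library. The intervals are those of log2 fold changes from the edgeR fits, and they rest on at most 6 mice per group.

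Genes called in cKO against the Cre control numbered 745, and 425 without a filter, 1157 by DESeq2, 38 in males alone, 364 in females alone and 263 with the compared groups alone. In cKO+NDI1 against cKO they numbered 32, and 21 without a filter, 107 by DESeq2, 18 with thinned counts, 20 with a replicate block, 2 in males alone, 2 in females alone and 13 with the compared groups alone, with 10 to 42 as each library was left out. For cKO+NDI1 against the NDI1 control they were 0, and 2 without a filter, 25 by DESeq2 and 1 in males alone, with 0 to 3 as each library was left out. For cKO+NDI1 against the Cre control they were 191, and 87 without a filter, 511 by DESeq2, 101 with thinned counts, 14 in males alone and 2 in females alone, with 26 to 279 as each library was left out. The NDI1 control against the Cre control had 1, and 79 by DESeq2, 3 by limma-voom, 6 with thinned counts, 2 with a replicate block and 2 in females alone, with 1 to 37 as each library was left out. The interaction had 0, and 13 by DESeq2, with 0 to 4 as each library was left out. Males against females had 13, and 38 by DESeq2 and 8 with thinned counts, with 10 to 33 as each library was left out. The causes were not tested.

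Some log2 fold changes, none of them called, changed sign. In males alone the value was -0.22 for Tsc22d3 in cKO against the Cre control, 0.21 for Tsc22d3 in cKO+NDI1 against cKO, -0.022 for Sult1a1 in cKO+NDI1 against the NDI1 control, and -0.0096 for Tsc22d3 in cKO+NDI1 against the Cre control. Males alone also gave -0.073 for Fkbp5, -0.57 for Zbtb16 and -0.096 for Plin4 in the NDI1 control against the Cre control, and 0.074 for Sgk1 and 0.26 for Tsc22d3 in the interaction. In females alone the value was 0.021 for Plin4 and -0.12 for Arrdc2 in cKO+NDI1 against cKO, and -0.034 for Nr3c1 in cKO+NDI1 against the NDI1 control. Females alone also gave 0.12 for Sgk1, -0.13 for Sult1a1, -0.028 for Cdkn1a, 0.015 for Tsc22d3 and 0.29 for Arrdc2 in the NDI1 control against the Cre control, and -0.46 for Zbtb16, -0.046 for Klf9 and -0.41 for Arrdc2 in the interaction. By limma-voom the value was 0.025 for Tsc22d3 and 0.14 for Plin4 in cKO+NDI1 against cKO, -0.0014 for Zbtb16 and 0.017 for Arrdc2 in the NDI1 control against the Cre control, and 0.043 for Tsc22d3 in the interaction. Thinned counts gave -0.0035 for Arrdc2 in cKO+NDI1 against cKO and -0.013 for Cdkn1a in the NDI1 control against the Cre control. Library size alone gave 0.0058 for Klf9 in cKO+NDI1 against the Cre control, and the replicate block gave 0.0086 for Arrdc2 in the NDI1 control against the Cre control.

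As each library was left out, log2 fold changes in cKO against the Cre control that changed sign ranged from -0.11 to 0.99 for Zbtb16 and -0.088 to 0.28 for Tsc22d3. In cKO+NDI1 against cKO they ranged from -0.42 to 0.043 for Fkbp5, -0.26 to 0.099 for Sgk1, -0.14 to 0.23 for Tsc22d3, -0.35 to 0.33 for Plin4, -0.094 to 0.31 for Arrdc2 and -0.067 to 0.0068 for Nr3c1. For cKO+NDI1 the range was -0.016 to 0.058 for Nr3c1 against the NDI1 control and -0.069 to 0.047 for Klf9 against the Cre control. In the NDI1 control against the Cre control they ranged from -0.029 to 0.29 for Fkbp5, -0.14 to 0.090 for Sgk1, -0.039 to 0.20 for Sult1a1, -0.033 to 0.064 for Cdkn1a, -0.43 to 0.45 for Zbtb16, -0.071 to 0.041 for Tsc22d3, -0.16 to 0.61 for Plin4 and -0.091 to 0.13 for Arrdc2. In the interaction they ranged from -0.23 to 0.15 for Sgk1, -0.15 to 0.90 for Zbtb16, -0.13 to 0.24 for Tsc22d3, -0.75 to 0.12 for Plin4, -0.051 to 0.11 for Klf9 and -0.12 to 0.31 for Arrdc2, and in males against females from -0.040 to 0.097 for Sult1a1 and -0.031 to 0.19 for Arrdc2. Pearson r with Fkbp5 ranged from 0.428 to 0.744 for Sult1a1, 0.29 to 0.731 for Cdkn1a, 0.459 to 0.774 for Klf9 and 0.474 to 0.772 for Arrdc2. The relations of Klf9 and Arrdc2 with Fkbp5 no longer passed without any 1 of Cre control M3, cKO+NDI1 F1, cKO F1, cKO F2 or cKO F3 (Klf9 also without NDI1 control F3), that of Sult1a1 passed without cKO F1 or F3, and that of Cdkn1a passed without cKO+NDI1 F1 or F3.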
